A study of Mus musculus with 11 samples.

Results

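The 8 mouse genes for guanine nucleotide exchange factors of Ras were described in skin tumours of an engineered melanoma model. They are the RasGRP family (Rasgrp1, Rasgrp2, Rasgrp3 and Rasgrp4), the RasGRF family (Rasgrf1 and Rasgrf2) and the SOS family (Sos1 and Sos2), taken by symbol from a count table of 18756 mouse genes. All 8 passed the filter on low counts, which left 17350 genes to test. Ras proteins are switches that signal while bound to GTP, and exchange factors turn them on by releasing GDP. SOS proteins are brought to the membrane by adaptors of receptor tyrosine kinases. RasGRP proteins such as RASGRP3 bind diacylglycerol, the lipid that phospholipase C makes below Gq and G11. RasGRF proteins respond to calcium and calmodulin. RASGRP3 is known in uveal melanoma as a link from mutant GNAQ or GNA11 to Ras.

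The study compared 3 genotypes, all on the C57BL/6 strain and all sampled as end-point tumours. GNA11 Q209L (2 libraries) carries the activated alpha subunit of G11. GNA11 Q209L Bap1 KO (5 libraries) has the same oncogene and is labelled knockout for Bap1, a nuclear deubiquitinase and tumour suppressor. BRAF V600E Bap1 KO (4 libraries) carries the activated kinase of cutaneous melanoma with the same Bap1 label. The table also counts a sequence of tamoxifen-inducible Cre, CreERT2, which lay at 85.6 to 129, 181 to 326 and 0.169 to 24.7 CPM in these genotypes in that order. CPM is a gene's count relative to the total of its library, scaled here by TMM factors. The labels name no promoter for the Cre and no sex, age, litter or batch. Replicate numbers are names in accession order. Replicates 1 and 2 of GNA11 Q209L Bap1 KO share an identifier in their titles, so they may come from 1 animal. Nothing in the labels says that the other libraries come from separate animals, so p-values measure the spread between these samples.

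The libraries held 18338082 to 81035135 counts, at which 3 counts equal 0.037 to 0.1636 CPM by total count. The labels were checked first. The human GNA11-Q209L sequence lay between 6.52 and 125 CPM in the libraries with GNA11 and at most at 0.0562 CPM with BRAF, while the human BRAF exon sequence was at 0.865 to 2.76 CPM with BRAF and at most at 0.0543 CPM elsewhere. Mouse Bap1 was counted at 111 ± 36.8 CPM (SD, n = 2) in GNA11 Q209L, 121 ± 29.7 (SD, n = 5) in GNA11 Q209L Bap1 KO and 60.9 ± 7.27 (SD, n = 4) in BRAF V600E Bap1 KO, so the gene total does not show the labelled knockout under GNA11. A deletion of some exons need not lower that total. One header of the table marks Bap1 as floxed in all 4 BRAF libraries, but a second header at its end gives NA for replicates 2 and 4. Results that change without those 2 libraries are given both ways. The 10 melanocyte markers summed to 68056 to 101384 CPM in the 7 libraries with GNA11 and to 51.2 to 657 CPM in the BRAF libraries. Few transcripts of these markers were thus counted in the BRAF libraries. The BRAF libraries also differed among themselves, with keratinocyte markers from 139 to 12777 CPM and salivary gland markers at 174715 CPM in replicate 4.

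Rasgrp3 and Rasgrf1 carried the widest differences among the 8 genes, and the 250 bases before their RefSeq starts (build GRCm38.p6) are shown so that the sequences can be set beside the values. Rasgrp3 has 2 listed starts, both on the plus strand of chromosome 17, and Rasgrf1 has 1 on the plus strand of chromosome 9. The capitals mark the only match found there to 5 motifs searched on both strands: the E-box CACGTG, the M-box core CATGTG that MITF can bind, the AP-1 site TGANTCA, the SOX core AACAAT and the ETS site CCGGAAGT.
Rasgrp3 start 1, chr17:75435655-75435904: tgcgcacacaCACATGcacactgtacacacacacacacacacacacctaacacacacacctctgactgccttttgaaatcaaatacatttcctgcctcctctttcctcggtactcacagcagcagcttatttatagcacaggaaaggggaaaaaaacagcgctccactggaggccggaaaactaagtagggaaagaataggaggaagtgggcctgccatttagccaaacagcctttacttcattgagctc
Rasgrp3 start 2, chr17:75465288-75465537: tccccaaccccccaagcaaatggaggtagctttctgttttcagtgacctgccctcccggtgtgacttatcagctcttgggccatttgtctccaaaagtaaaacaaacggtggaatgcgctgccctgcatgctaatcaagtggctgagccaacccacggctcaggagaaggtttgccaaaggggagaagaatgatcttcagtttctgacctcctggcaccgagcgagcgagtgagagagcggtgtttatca
Rasgrf1, chr9:89909525-89909774: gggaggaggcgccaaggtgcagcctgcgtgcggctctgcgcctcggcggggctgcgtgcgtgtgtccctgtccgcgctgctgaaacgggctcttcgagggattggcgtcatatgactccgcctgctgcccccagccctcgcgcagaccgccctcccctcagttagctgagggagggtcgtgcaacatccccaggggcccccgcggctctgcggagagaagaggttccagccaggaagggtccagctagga
The match begins at position -240 from the first Rasgrp3 start, as CACATG, which is CATGTG on the other strand. Of 32851 mouse promoter windows of 300 bases (250 before to 50 after the start), 14.2% hold that motif, 7.15% CACGTG, 7.81% TGANTCA, 10.7% AACAAT and 3.89% CCGGAAGT. Among the 9 windows of the 7 members that matched, the only other match was a CACGTG in Rasgrf2, at position -47. Rasgrp4 had no entry. The full Rasgrf1 window is rich in CpG, with 26 CpG and 68.3% G and C, against 5 and 9 CpG and 48.3% and 52.7% G and C in the Rasgrp3 windows. The median window has 7 CpG and 52.7% G and C. A match is a stretch of letters and was not tested for binding.

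The calls over the 8 genes are read against those over all 17350 genes in edgeR's quasi-likelihood test, with Benjamini-Hochberg adjusted p and a threshold of 0.05. For GNA11 Q209L Bap1 KO against GNA11 Q209L, 0 of 8 members were called, where 0.00576% of all genes were called higher and 0.0231% lower. Before adjustment 3 members (Rasgrp1, Rasgrp3 and Rasgrf2) and 1970 of all genes had a p under 0.05 there. DESeq2 called 1 member higher, Rasgrp3, beside 1.34% of the genes it gave an adjusted p called higher and 1.3% lower. For GNA11 Q209L Bap1 KO against BRAF V600E Bap1 KO, 1 member was called higher and 4 lower, where 16.5% of all genes were called higher and 24.7% lower. For GNA11 Q209L against BRAF V600E Bap1 KO, 1 was called higher and 2 lower, beside 9.27% and 5.93%. The groups did not overlap for 3, 4 and 5 of the 8 members in these comparisons, beside 16.6%, 31.8% and 41.9% of all genes. Rasgrf2 was among the first 3 only by scaling. GNA11 Q209L replicate 2 and GNA11 Q209L Bap1 KO replicate 4 were both at 1.29 CPM for it. By total counts they were at 1.12 and 1.29 CPM, so the groups overlapped. The last comparison changes oncogene and Bap1 label together and isolates neither, and it shares the BRAF libraries with the one before it. The median log2 fold change of the members was -0.26, -1.42 and -0.77 in the same order, and that of all genes was 0.00, -0.26 and -0.23. With scaling by total counts alone the medians of all genes in the 2 comparisons with BRAF were -0.64 and -0.66. Calls over all genes were then 1746 higher and 5725 lower in place of 2865 and 4281 for GNA11 Q209L Bap1 KO against BRAF V600E Bap1 KO. They were 863 higher and 1602 lower in place of 1609 and 1028 for GNA11 Q209L against BRAF V600E Bap1 KO.

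**Figure D1:**
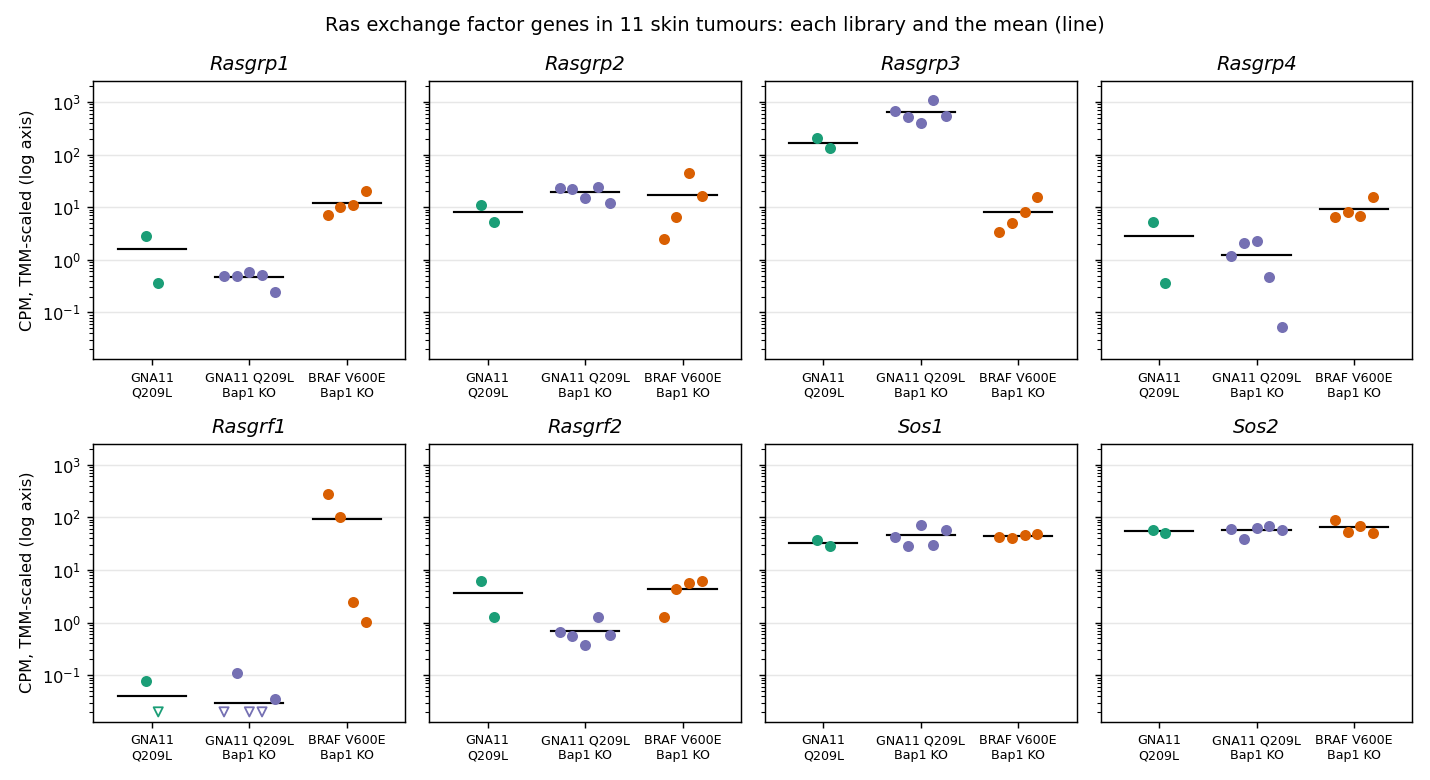
CPM (TMM-scaled, log axis) of the 8 exchange factor genes in each of the 11 libraries, by genotype. Points are libraries, lines are means, and open triangles at the bottom mark libraries with no count. Rasgrp3 lies between 131 and 1097 CPM in the 7 libraries with GNA11 Q209L and between 3.32 and 15.9 CPM with BRAF. Rasgrf1 has counts above a few reads only in the BRAF libraries. Over all libraries Sos1 lies between 28.4 and 70.8 CPM and Sos2 between 38.6 and 86.9 CPM.

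Rasgrp3 (ENSMUSG00000071042), the diacylglycerol-binding exchange factor known from uveal melanoma, was abundant with GNA11 Q209L and low with BRAF V600E. It was at 206 and 131 CPM in the GNA11 Q209L libraries. In GNA11 Q209L Bap1 KO it was at 662, 519, 393, 1097 and 546 CPM in replicates 1 to 5. In BRAF V600E Bap1 KO it was at 3.32, 4.91, 8.01 and 15.9 CPM in replicates 1 to 4. No 2 genotypes overlapped: every Bap1 KO library with GNA11 was above both GNA11 Q209L libraries, and all 7 were above the BRAF libraries. Its mean in GNA11 Q209L Bap1 KO was 80.1 times that in BRAF V600E Bap1 KO, a log2 fold change of 6.33 ± 0.60 (SE) with an adjusted p of 0.000173 in edgeR. Of the 17350 genes, 70 had a larger rise in that comparison. In GNA11 Q209L it was 21-fold higher than in BRAF V600E Bap1 KO, at 4.39 ± 0.59 (SE) and an adjusted p of 0.00257 in edgeR. Both calls held under all alternatives run, 18 for the first and 15 for the second. In bulk tumours, fewer cells of a type and less RNA per cell cannot be told apart, and the melanocyte marker sum moved with Rasgrp3 between the oncogenes, a part in the result that was not tested.

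Under the same oncogene, Rasgrp3 averaged 643 ± 271 CPM (SD, n = 5) with the Bap1 KO label and 168 ± 52.6 (SD, n = 2) without it, which is 3.82-fold. The log2 fold change was 1.93 ± 0.64 (SE) and did not pass the edgeR test, whose adjusted p was 0.309. DESeq2 gave 1.94 with an adjusted p of 0.0399, and in edgeR, DESeq2 or limma over all 15 alternatives the adjusted p ran from 0.0399 to 0.944. The exact two-sided permutation test gave 0.0952, the smallest value that 5 against 2 libraries allow. Rasgrp2 and Rasgrf2, whose groups also did not overlap there, got the same value from it. Adjusted over the 24 exact tests of the members it was 0.246. Mouse Xist, a transcript of the inactive X chromosome, was at 198 and 358 CPM in the GNA11 Q209L libraries and at 695 CPM in replicate 3 of GNA11 Q209L Bap1 KO, but at 0.428 to 1.42 CPM in the other 4. That replicate had the lowest Rasgrp3 of its genotype, 393 CPM, still above both GNA11 Q209L libraries, and with the Xist level in the fit the change was 1.37 ± 0.63 (SE) with an adjusted p of 0.665 in edgeR. Mitf, the melanocyte transcription factor, averaged 719 ± 322 CPM (SD, n = 5) against 338 ± 9.15 (SD, n = 2) in the same libraries, and the part of pigment cell content was not tested. The human GNA11-Q209L sequence was at 23.0 and 125 CPM without the Bap1 KO label and at 6.52 to 17.4 CPM with it.

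Rasgrp1 (ENSMUSG00000027347), the exchange factor that couples the T cell receptor to Ras, had its highest levels in the BRAF tumours. It was at 2.83 and 0.357 CPM in GNA11 Q209L and at 0.489, 0.498, 0.595, 0.524 and 0.242 CPM in GNA11 Q209L Bap1 KO. The BRAF V600E Bap1 KO libraries were at 7.03, 9.92, 10.9 and 19.9 CPM in replicate order. All BRAF libraries lay above all libraries with GNA11, whose own 2 genotypes overlapped. It was 25.4-fold lower in GNA11 Q209L Bap1 KO than in BRAF V600E Bap1 KO, at a log2 fold change of -4.67 ± 0.63 (SE) and an adjusted p of 0.000768 in edgeR, and the call held in all 18 alternatives. Against BRAF V600E Bap1 KO, GNA11 Q209L was lower by edgeR as well (-2.89 ± 0.83, adjusted p 0.0422), but 7 of 15 alternatives lost that call. Leaving out GNA11 Q209L replicate 2 gave -2.07 with an adjusted p of 0.228, and leaving out replicate 2, 3 or 4 of BRAF V600E Bap1 KO gave 0.058, 0.0568 and 0.0641. Without both libraries marked NA for Bap1 it was 0.109. With the Bap1 KO label under GNA11 the change was -1.78 ± 0.67 (SE; adjusted p 0.358 in edgeR), and it was 0.38 without GNA11 Q209L replicate 1, the library with the higher level. The 10 T and NK cell markers summed to 19.1, 85.2, 21.3 and 25.3 CPM in BRAF replicates 1 to 4. They summed to 10.1 to 21.2 CPM in the GNA11 Q209L Bap1 KO libraries and to 65.5 and 3.97 CPM in GNA11 Q209L replicates 1 and 2. With BRAF the highest sum was in replicate 2 and the highest Rasgrp1 in replicate 4. GNA11 Q209L replicate 1 had a higher sum than BRAF replicates 1, 3 and 4 but a lower Rasgrp1. The part of these cells in the Rasgrp1 levels was not tested.

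Rasgrp2 (ENSMUSG00000032946), the calcium-responsive member best known for activating Rap1 in platelets, passed the test in no comparison. It was at 10.8 and 5.13 CPM in GNA11 Q209L and at 22.9, 22.6, 14.8, 24.5 and 12.1 CPM in GNA11 Q209L Bap1 KO. With BRAF it was at 2.54, 6.65, 43.7 and 16.1 CPM. The 2 genotypes with GNA11 did not overlap, whereas the BRAF libraries spanned both. The log2 fold change with the Bap1 KO label was 1.29 ± 0.89 (SE), with an adjusted p of 0.643 in edgeR. Against BRAF V600E Bap1 KO it was 0.17 ± 0.66 in GNA11 Q209L Bap1 KO, with a sign that turned with total count scaling (-0.25), and -1.11 ± 0.90 in GNA11 Q209L. Replicate 3 decided the BRAF mean, which was 17.2 CPM with it and 8.42 CPM without it. The 7 measured platelet and megakaryocyte markers summed to 143, 38.2, 28.8 and 37.8 CPM in BRAF replicates 1 to 4. Replicate 3, with the highest Rasgrp2, had the lowest of these sums, and replicate 1, with the lowest Rasgrp2, had the highest. With GNA11 the markers summed to 6.43 to 14.5 CPM, and their part was not tested. The Rasgrp2 exons overlap an antisense gene, Gm14965, over 2.14% of their length.

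Rasgrp4 (ENSMUSG00000030589), a member found mainly in mast cells and other myeloid cells, was lower in GNA11 Q209L Bap1 KO than in BRAF V600E Bap1 KO. It was at 5.26 and 0.357 CPM in GNA11 Q209L, at 1.19, 2.05, 2.27, 0.476 and 0.0519 CPM in the GNA11 Q209L Bap1 KO libraries, and at 6.45, 8.21, 6.72 and 15.3 CPM with BRAF. The BRAF libraries were above all others. The fold was 7.60 (log2 -2.94 ± 0.95, adjusted p 0.0309 in edgeR), and the adjusted p was 0.14 without the 2 libraries marked NA for Bap1. It was 0.0535 with the 2 libraries of a shared identifier summed, and 0.059, 0.0645 and 0.068 without GNA11 Q209L Bap1 KO replicate 1 or 4 or BRAF V600E Bap1 KO replicate 4. GNA11 Q209L against BRAF V600E Bap1 KO was not called (-1.70 ± 1.27, adjusted p 0.348 in edgeR). Nor was the change with the Bap1 KO label under GNA11, which was -1.24 ± 1.09 and turned to 1.73 without GNA11 Q209L replicate 1. Of 10 mast cell markers, 9 summed to 372, 86.0, 87.6 and 105 CPM in BRAF replicates 1 to 4. The highest of these sums was in the BRAF library with the lowest Rasgrp4. With GNA11 these 9 summed to 0.758 to 8.60 CPM. The tenth, Mrgprb1, was at 170 to 1430 CPM with GNA11 and at 2.73 to 14.7 CPM with BRAF, and Fcer1a had no count in the 7 libraries with GNA11. In GNA11 Q209L, replicate 1 had the higher Rasgrp4 and the higher macrophage and myeloid marker sum, 6818 CPM against 842 CPM. The BRAF libraries had lower myeloid sums than that replicate, 2806, 2990, 805 and 1771 CPM in replicates 1 to 4, but higher Rasgrp4. The part of these cells was not tested. Rasgrp4 exons overlap Fam98c, on the other strand, over 15.4% of their length and Gm16282 over 2.84%. Reads over those shared stretches cannot be told apart because the strand setting is not given.

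Rasgrf1 (ENSMUSG00000032356), an exchange factor of neurons that calcium and calmodulin activate, was counted almost only in the BRAF tumours. It had 3 and 0 counts in the GNA11 Q209L libraries, 4 counts in all over the 5 libraries of GNA11 Q209L Bap1 KO, and 24302, 2938, 69 and 23 counts in BRAF V600E Bap1 KO replicates 1 to 4. In CPM the BRAF libraries were at 273, 100, 2.40 and 1.01. Each of them was above every library with GNA11, but they differed widely among themselves. The BRAF mean was 3151 times the level from the pooled counts of GNA11 Q209L Bap1 KO, with an exact 95% Poisson interval of 1230 to 11563 that covers counting error alone. Without replicate 1 the ratio was 1155, and for replicate 4 alone it was 33.6. The edgeR test called it lower in GNA11 Q209L Bap1 KO (adjusted p 0.002), and limma voom did not (adjusted p 0.0919). GNA11 Q209L was also called lower (adjusted p 0.0316 in edgeR), and 5 of 15 alternatives lost that call. The ratio of the BRAF mean to the level from the 3 pooled counts of GNA11 Q209L was 1903, with a counting interval of 651 to 9228.

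Neuronal transcripts were also seen in the BRAF tumours beside Rasgrf1. The 7 measured neuronal markers summed to 194, 414, 135 and 238 CPM in BRAF replicates 1 to 4 and to 1.08 to 5.44 CPM in the 7 libraries with GNA11. Among the BRAF libraries the sum was highest in replicate 2, but Rasgrf1 was highest in replicate 1. Replicate 4 had a higher sum than replicate 1 and the lowest Rasgrf1. Different markers were high in different libraries: Stmn2 was at 117 and 398 CPM in replicates 1 and 2 and at 2.72 and 4.98 CPM in replicates 3 and 4, while Nefm was at 39.8 and 90.1 CPM in replicates 3 and 4. The synaptic marker Snap25 had no count in any library with GNA11 or in BRAF replicate 4. It was at 2.66, 1.23 and 1.01 CPM in BRAF replicates 1 to 3. Syt1, also synaptic, was counted in every BRAF library. It had no count in GNA11 Q209L replicates 1 and 2 or GNA11 Q209L Bap1 KO replicates 1 and 5. The part of neural cells in the Rasgrf1 level was not tested.

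Rasgrf2 (ENSMUSG00000021708), the related factor of neurons and several other cell types, was lower in GNA11 Q209L Bap1 KO than with BRAF. It was at 6.07 and 1.29 CPM in GNA11 Q209L and at 0.652, 0.553, 0.379, 1.29 and 0.588 CPM in GNA11 Q209L Bap1 KO. In the BRAF libraries it was at 1.27, 4.40, 5.54 and 6.21 CPM. The groups touch, since BRAF replicate 1 lay just under the highest GNA11 Q209L Bap1 KO library. The fold was 6.30 (log2 -2.65 ± 0.62, adjusted p 0.00887 in edgeR), and without the 2 libraries marked NA for Bap1 the adjusted p was 0.0561. Against GNA11 Q209L the Bap1 KO libraries had a log2 fold change of -2.41 ± 0.71 (SE), which did not pass the test (adjusted p 0.262 in edgeR). Without GNA11 Q209L replicate 1 it was -0.90 ± 0.85 (adjusted p 0.947 in edgeR), and the GNA11 Q209L level was then 1.29 CPM in place of a mean of 3.68. GNA11 Q209L and BRAF V600E Bap1 KO were close in mean, at 3.68 and 4.35 CPM, with a log2 fold change of -0.24 ± 0.78 (SE). The 8 fibroblast markers, all counted in every library, summed to 3011 and 11423 CPM in GNA11 Q209L, with the higher sum in replicate 1. They summed to 382 to 2300 CPM in the GNA11 Q209L Bap1 KO libraries and to 4256 to 18923 CPM with BRAF, and their part in the Rasgrf2 level was not tested. GNA11 Q209L replicate 1 was above replicate 2 in most other marker lists too. Among them were macrophage and myeloid (6818 against 842 CPM), T and NK cell (65.5 against 3.97) and endothelial markers (1106 against 713). Only the salivary gland sum (1.6 against 40.6 CPM) and the mast cell sum with Mrgprb1 (178 against 773 CPM) were lower in it.

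**Figure D2:**
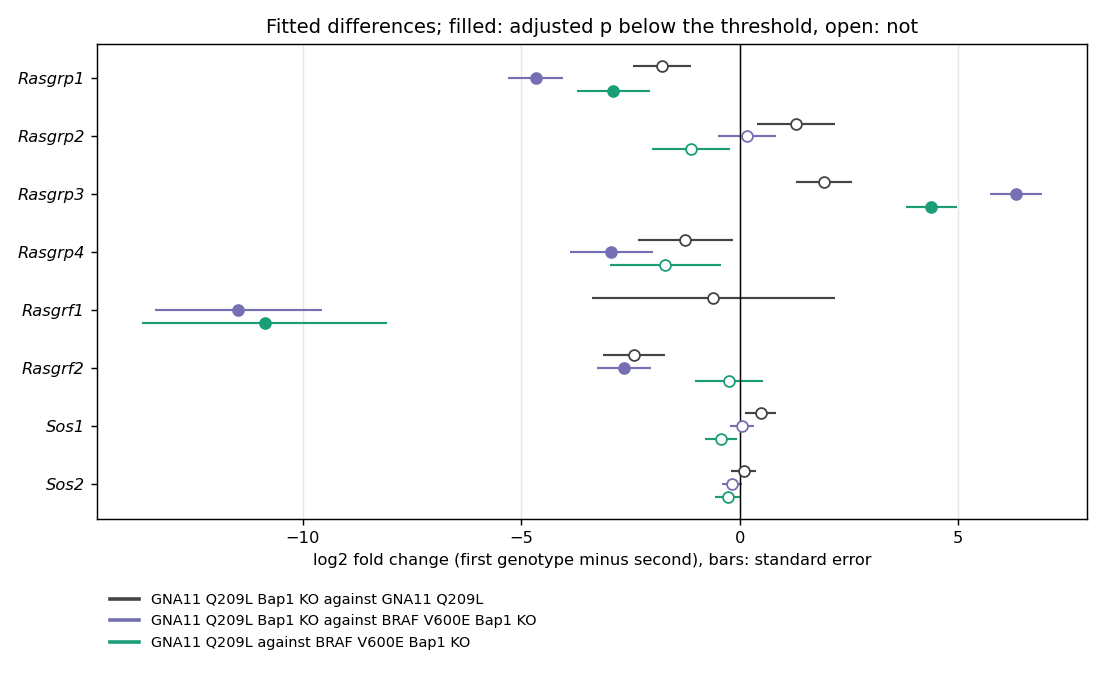
Log2 fold changes with standard errors (bars) of the 8 genes in the 3 comparisons, first genotype minus second, from edgeR. Filled points have an adjusted p below 0.05. Rasgrp3 is called higher with GNA11 Q209L in both comparisons with BRAF, Rasgrp1, Rasgrp4, Rasgrf1 and Rasgrf2 are called lower in GNA11 Q209L Bap1 KO than in BRAF V600E Bap1 KO, and the points of Sos1 and Sos2 lie between -0.43 and 0.48.

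Sos1 (ENSMUSG00000024241) and Sos2 (ENSMUSG00000034801), the exchange factors that GRB2 carries to receptor tyrosine kinases, passed the test in no comparison. Sos1 was at 36.5 and 29.0 CPM in GNA11 Q209L, at 42.3, 28.4, 70.8, 29.7 and 57.1 CPM in the GNA11 Q209L Bap1 KO libraries, and at 42.9, 39.7, 45.2 and 48.7 CPM with BRAF. Both BRAF and GNA11 Q209L libraries fell within the range of GNA11 Q209L Bap1 KO, so its spread was wider than any difference between means. All BRAF libraries lay above both GNA11 Q209L libraries. The Sos1 log2 fold change of GNA11 Q209L against BRAF V600E Bap1 KO was -0.43 ± 0.37 (SE, adjusted p 0.416 in edgeR). With scaling by total counts alone it was -0.85 ± 0.40 (SE, adjusted p 0.14 in edgeR). Sos2 was at 57.9 and 50 CPM, at 60.7, 38.6, 63.0, 68.8 and 56.3 CPM, and at 86.9, 53.2, 69.1 and 50.7 CPM in the same order. Its 3 genotypes overlapped. For GNA11 Q209L Bap1 KO against BRAF V600E Bap1 KO the log2 fold change was 0.05 for Sos1, with 2 SE to either side reaching from -0.51 to 0.61, and -0.18 for Sos2, reaching from -0.63 to 0.28. These ranges do not show that the levels are equal, and the Sos1 direction turned to -0.32 with scaling by total counts alone. With the Bap1 KO label under GNA11 the values were 0.48 ± 0.36 (SE) for Sos1 and 0.09 ± 0.29 (SE) for Sos2.

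Levels of different genes were compared only per kilobase of exon, from GENCODE M21 exon lengths of 5.60 kb (Rasgrp1) to 12.4 kb (Rasgrp2). On that scale Rasgrp3 was the first of the 8 in every library with GNA11. It made up 72.9% and 70.8% of the summed CPM per kb in GNA11 Q209L and 81% to 93.4% in GNA11 Q209L Bap1 KO, but 1.35% to 12.8% with BRAF. Sos2 was second in these 7 libraries at 4.02% to 18.5%, followed by Sos1 at 1.39% to 8.63%. In the BRAF libraries Rasgrf1 led in replicates 1 and 2, with 58.6% and 37.8%, and Sos2 led in replicates 3 and 4, with 38.5% and 28.0%. Mean levels per kb in GNA11 Q209L Bap1 KO were 110 ± 46.4 for Rasgrp3, 6.75 ± 1.35 for Sos2, 4.31 ± 1.72 for Sos1 and 1.57 ± 0.448 for Rasgrp2 (SD, n = 5), and the other 4 genes were under 0.2. Neighbours Sos2 and Sos1 differed by less than the sum of their SDs there. The summed level of all 8 genes was 48.3 and 31.7 CPM per kb in GNA11 Q209L, 83.1 to 201 in GNA11 Q209L Bap1 KO and 21.1 to 42.1 with BRAF. Exon lengths join all transcripts of a gene, so the level of a gene with long, little used exons would be understated, and exon use was not measured here.

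**Figure D3:**
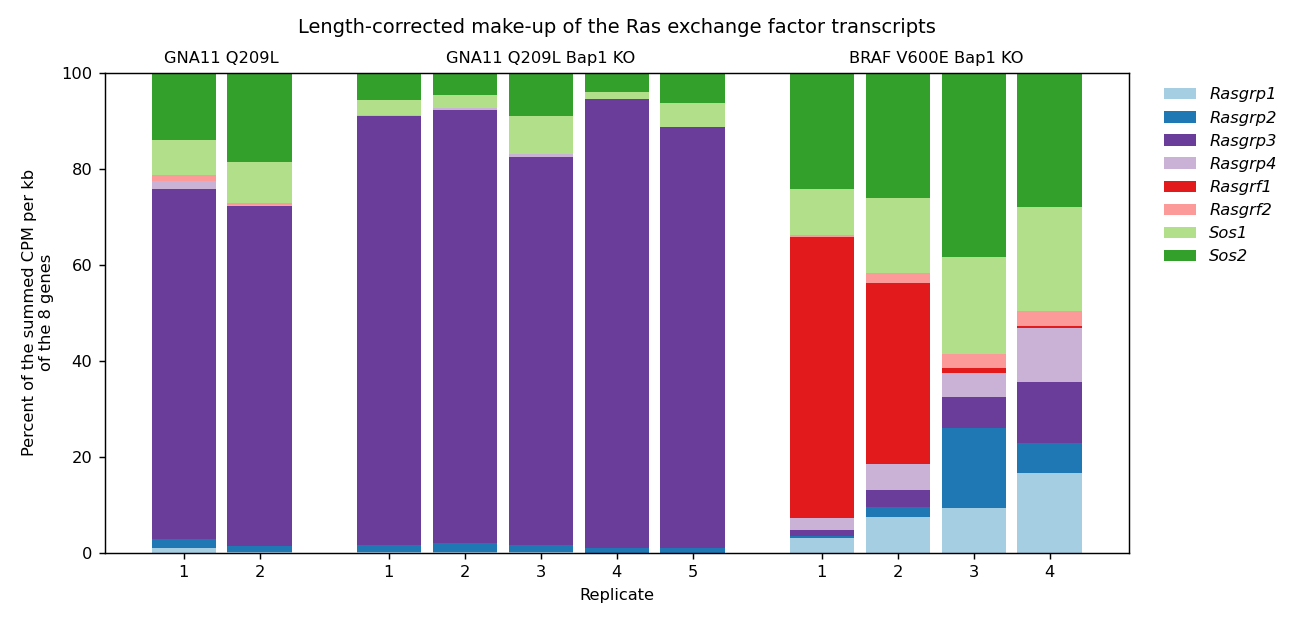
Percent of the summed CPM per kb that each of the 8 genes makes up in each library (stacked bars, replicates in order within genotype). Rasgrp3 fills 70.8% to 93.4% of each bar with GNA11 Q209L and at most 12.8% with BRAF V600E, where Rasgrf1 fills 58.6% of replicate 1 and 37.8% of replicate 2.

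The genes nearest to each member in pattern were ranked by the root mean square difference of centred log2 CPM over the 11 libraries, among 11372 candidates (11373 for Rasgrf2). For Rasgrp3, whose own spread on that scale was 3.0, they were Dcaf12l1 (0.55), Gyg (0.68), Rab27a (0.69) and Rab38 (0.69). Gyg, the primer of glycogen synthesis, averaged 456, 1092 and 33.9 CPM over the genotypes in the order above. Rab27a and Rab38 are GTPases of melanosome transport and sorting. Over the 7 libraries with GNA11 alone, where the spread of Rasgrp3 was 0.96, the nearest genes were Neto2 (0.24), Cep55 (0.26), Myo6 (0.29), Fbxo5 (0.31) and Ndc80 (0.31). Cep55, Fbxo5 and Ndc80 act in cell division. They averaged 2.34, 2.1 and 1.43 CPM in GNA11 Q209L and 9.56, 7.29 and 7.34 CPM in GNA11 Q209L Bap1 KO. With BRAF, where Rasgrp3 was low, they averaged 13.4, 9.07 and 7.78 CPM. For the other members the nearest 2 were Cysltr1 (0.51) and Fam65b (0.52) for Rasgrp1, Agbl2 (0.46) and Gulp1 (0.48) for Rasgrp2, and Plbd1 (0.82) and Vav3 (0.82) for Rasgrp4. They were Fam110c (0.91) and Slc14a1 (1.00) for Rasgrf1 and Asb13 (0.39) and Enpp2 (0.41) for Rasgrf2. For Sos1 they were Abca5 (0.23) and Cd3eap (0.25), and for Sos2 Plrg1 (0.11) and Ifnar1 (0.12), beside own spreads of only 0.39 and 0.29. Pairs share libraries and depth, so these distances are descriptions.

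Genes around the exchange factors were followed in 8 lists, of which 94 of 96 entries matched the table. In GNA11 Q209L Bap1 KO against GNA11 Q209L, edgeR called 0 of the 93 tested, with 12 (12.9%) at an unadjusted p under 0.05 beside 11.4% of all genes. DESeq2 called 1 phospholipase C, 1 diacylglycerol kinase and 2 calcium and calmodulin partners higher, beside 1.34% of all genes with an adjusted p from it. Plcb4, the phospholipase C that uveal melanoma mutates, averaged 255 ± 124 CPM (SD, n = 5) with and 20.3 ± 9.04 (SD, n = 2) without the Bap1 KO label, at a log2 fold change of 3.65 ± 1.21 (SE) and an adjusted p of 0.312 in edgeR. The counts below are for GNA11 Q209L Bap1 KO against BRAF V600E Bap1 KO by the same test, beside 16.5% of all genes called higher and 24.7% lower, and the median of all genes was -0.26.

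Of 11 Ras and Rap GTPases, 2 were called higher and 4 lower, with a median log2 fold change of -0.58. Nras was lower in GNA11 Q209L Bap1 KO, at 92.2 ± 11 against 153 ± 8.13 CPM, and so was the Ras relative Rras2, at 17.0 ± 6.68 against 40.0 ± 13.9 CPM, a call lost in 5 of 18 alternatives. Rap2b was higher, at 126 ± 31.1 against 34.9 ± 8.81 CPM. Of 13 Ras GTPase-activating proteins and their partners, which turn Ras off, 3 were higher and 4 lower (median -0.30). Nf1, the neurofibromin gene, was higher, at 222 ± 34.6 against 90.5 ± 22 CPM. Rasa1 was lower, at 24.2 ± 7.46 against 207 ± 179 CPM, and so was Spred1, which recruits neurofibromin, at 106 ± 17.6 against 306 ± 182 CPM.

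Of 13 Rap and Ral exchange factors 4 were called higher and 1 lower (median 0.16). Rapgef4, the cAMP-gated Rap exchange factor EPAC2, was at 309 ± 76.1 CPM with GNA11 Q209L Bap1 KO and 13.8 ± 13.9 with BRAF (log2 4.48 ± 0.62, adjusted p 0.000878 in edgeR). Rgl3 was higher as well, at 23.9 ± 3.27 against 6.35 ± 3.58 CPM, and Rapgefl1 lower, at 1.74 ± 1.08 against 43.8 ± 40.8 CPM. Of 17 adaptors and docking proteins that bring SOS to receptors, 3 were higher and 2 lower (median 0.12). Grb2, the adaptor that binds SOS, was at 159 ± 29.6 against 76.0 ± 15.7 CPM, although scaling by total counts alone took its call away (adjusted p 0.0562). Ptpn11, the phosphatase SHP2, was at 402 ± 59.0 against 173 ± 48.1 CPM. Irs1, the insulin receptor substrate, was lower, at 6.42 ± 2.20 against 31.4 ± 9.49 CPM.

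The genes that make, remove or sense diacylglycerol did not move one way. Of 12 phospholipases C, 1 was called higher and 4 lower (median -0.61). Plcb4 was the one higher, at 255 ± 124 against 33.9 ± 43.8 CPM with groups that overlapped. Its adjusted p was 0.0217 in edgeR, and 0.052 and 0.0538 without BRAF V600E Bap1 KO replicate 2 or 3. Without replicate 4 the BRAF mean was 12.3 CPM and the log2 fold change 4.37 in place of 2.91. Plce1, itself an effector of Ras, was at 0.831 ± 0.218 against 25.4 ± 14.5 CPM, Plcd3 at 4.94 ± 2.17 against 33.1 ± 10.6 CPM and Plcb1 at 2.67 ± 0.819 against 15.6 ± 10.7 CPM. Of 9 tested diacylglycerol kinases, which remove the lipid, 1 was higher and 3 lower (median 0.02). Dgkh, at 6.57 ± 2.34 against 3.0 ± 0.729 CPM, and Dgkq, at 21.4 ± 5.91 against 35.8 ± 8.01 CPM, lost their calls in 7 and 9 of 18 alternatives. Of 10 protein kinases C and D that bind diacylglycerol, 3 were higher and 3 lower (median -0.33). Prkce was at 72.1 ± 19.3 against 21.2 ± 9.42 CPM and Prkd3 at 61.0 ± 11.5 against 147 ± 79.3 CPM. Of the 8 measured calcium and calmodulin partners of RasGRF, 3 were higher and 1 lower (median 0.25). Calm3, a calmodulin gene, was at 517 ± 79.6 against 190 ± 36.3 CPM and Grin1, the NMDA receptor subunit, at 4.81 ± 2.72 against 0.231 ± 0.151 CPM. Camk2a, at 0.646 ± 0.472 against 7.08 ± 10.2 CPM, lost its call in 2 of 17 alternatives. These values are mean ± SD over 5 and 4 libraries.

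**Figure D4:**
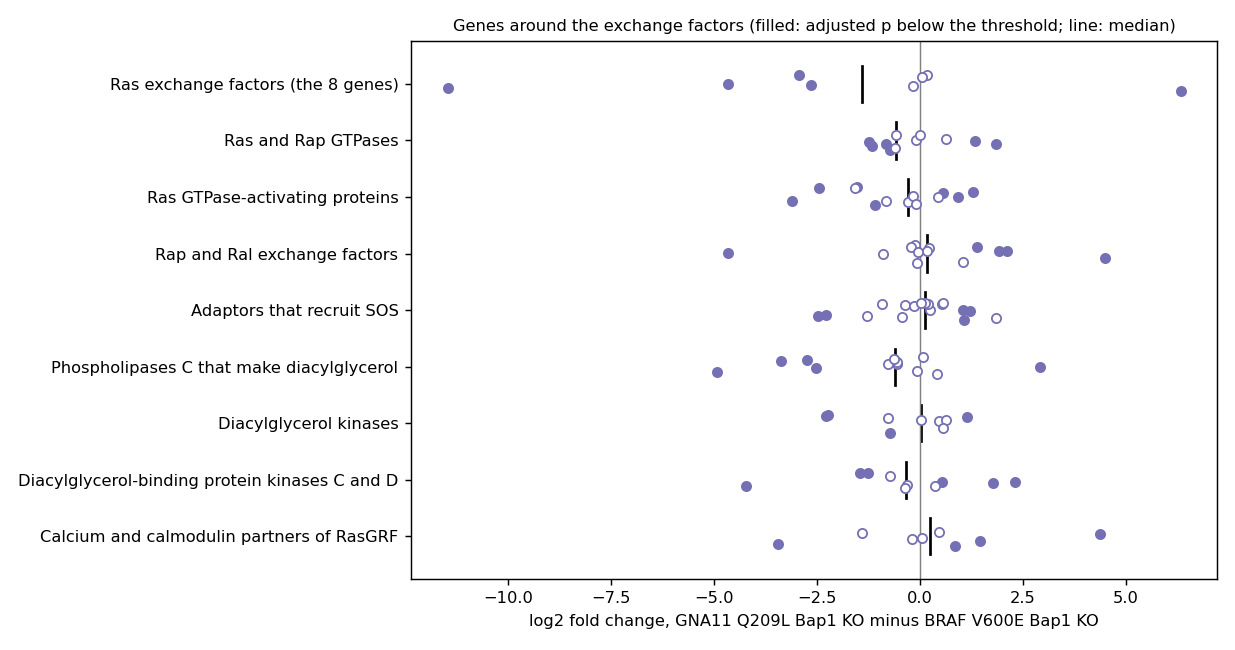
Log2 fold changes of GNA11 Q209L Bap1 KO minus BRAF V600E Bap1 KO for the 8 exchange factors and 8 gene lists around them. Points are genes, filled where the edgeR adjusted p is below 0.05, and black lines are medians. Each list has filled points on both sides of 0, and the exchange factors reach from -11.47 (Rasgrf1) to 6.33 (Rasgrp3).

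In GNA11 Q209L against BRAF V600E Bap1 KO, 13 of the 93 were called, beside 9.27% of all genes called higher and 5.93% lower. Those higher in the GNA11 Q209L libraries included Rap2a and Rap2b, Gab2 and Grb2, and Rapgef4. Rasa1 and Spred1, Rapgefl1, Irs1, Plcd3 and Plce1, and Dgki were called lower. Dgki rests on few counts. It averaged 0.0577 CPM in GNA11 Q209L, where 3 counts equal 0.0711 and 0.1163 CPM by total count, and 1.58 ± 1.9 CPM (SD) with BRAF. Rapgef4 was at 212 ± 91.3 CPM (SD, n = 2) and Plce1 at 1.22 ± 0.53 CPM (SD, n = 2) in GNA11 Q209L. Each of these 13 calls was lost in at least 1 of 15 alternatives, and Rap2a in 10 of them.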

How the data were processed

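The values are expected counts per gene, whole numbers that the authors deposited in 1 table with Ensembl IDs and mouse symbols. STAR and the build mm9 are named in the submitters' processing notes. For the counting program, its annotation and strand setting, and multi-mapped reads, the answer is not given in the sources used here. Libraries were made from total RNA of skin tumours, per the labels. Of 18769 lines, 7 repeats were dropped and 6 transgene sequences kept apart. Another 21 symbols turned into dates were restored from their IDs.

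Counts were tested with edgeR 4.0.16 (R 4.3.3, quasi-likelihood, TMM scaling, filterByExpr), with genotype as the only term over all 11 libraries. Tests were two-sided, with Benjamini-Hochberg over 17350 genes and a threshold of 0.05. The procedure was also run on simulated counts with less spread between libraries than these data, whose common dispersion was 0.419. GNA11 Q209L against BRAF V600E Bap1 KO was not simulated. That run therefore does not show how the procedure performs at the spread seen here. SE is the log2 fold change over the root of its F. DESeq2 1.42.0 and limma voom 3.58.1 were alternatives. Intervals and floors (3 counts) cover counting error only. Log2 CPM used a prior count of 2, and genes near a member in pattern needed an average of at least 2 and a symbol that is no clone name. The members and lists were chosen with earlier results of these data known. All 8 members are named, with Bap1, Gna11, Gnaq, Plcb4, Mitf and Braf as key genes. From each list up to 3 called genes with the smallest adjusted p and groups that do not overlap are named per comparison. Plcb4 in its list is a key gene. Exon lengths come from GENCODE M21 and promoter windows from RefSeq (GRCm38.p6). No position was set against the mm9 counts. Genes that the rules pick but that are not named in the text are not reported here.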

Additional observations from a re-analysis of the deposited data

How the results depend on the processing

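Of the 5 members called in GNA11 Q209L Bap1 KO against BRAF V600E Bap1 KO, Rasgrp3 and Rasgrp1 kept their calls in all 18 alternatives, while Rasgrf1, Rasgrf2 and Rasgrp4 lost theirs in 1, 1 and 5. Without the 2 libraries marked NA for Bap1 (chosen after seeing the data, as was the Xist term), 2 members were called lower in place of 4. In GNA11 Q209L against BRAF V600E Bap1 KO, members called lower numbered 2. That became 1 with limma voom, 0 with the 2 genotypes alone, 1 without the libraries marked NA, 0 with the Xist level as a covariate, and 0 to 2 when 1 library was left out. In GNA11 Q209L Bap1 KO against GNA11 Q209L, DESeq2 called 1 member higher, and no other alternative called any. In BRAF V600E Bap1 KO the Xist level varied within the genotype, at 99.8, 0.92, 1224 and 0.262 CPM in replicates 1 to 4. The causes of these changes in calls were not tested.

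Log2 fold changes of members and key genes turned sign only where the gene was not called. In GNA11 Q209L Bap1 KO against GNA11 Q209L, leaving out 1 library gave -2.54 to 0.38 for Rasgrp1, -2.06 to 1.73 for Rasgrp4, -1.35 to 3.12 for Rasgrf1, -0.18 to 0.58 for Bap1 and -0.46 to 1.30 for Gna11, with the upper end for the members and the lower for the others reached without GNA11 Q209L replicate 1. The Xist term gave 0.07 for Rasgrf1. Without GNA11 Q209L Bap1 KO replicate 2 Gna11 was at -0.16, and without replicate 5 Bap1 was at -0.05. Against BRAF V600E Bap1 KO, GNA11 Q209L Bap1 KO gave -0.02 (limma voom), -0.32 (total counts), -0.09 (without its replicate 3) and 0.00 (without BRAF replicate 2) for Sos1, and -0.25 (total counts), -0.19 and -0.10 (without BRAF replicate 1 or 2) and -0.22 (without the libraries marked NA) for Rasgrp2, with leave-one-out highs of 0.25 and 1.2. GNA11 Q209L gave 0.02 (limma voom), 0.49 (without its replicate 2), 0.10 (without the libraries marked NA) and 0.03 (Xist term) for Rasgrf2, 0.45, 0.72 and 0.71 for Plcb4 (limma voom, without BRAF replicate 4, without the libraries marked NA), and -0.34 for Gnaq (total counts). Its leave-one-out lows were -1.74 for Rasgrf2 and -1.28 for Plcb4. Scaled by total counts, mean Sos1 with BRAF was 52.4 CPM in place of 44.1 and mean Sos2 in GNA11 Q209L 48.0 in place of 53.9.

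Of all genes, 1 was called higher and 4 lower with the Bap1 KO label under GNA11. DESeq2 called 219 and 214, the 2 genotypes alone 16 and 48, summing the libraries of a shared identifier 0 and 0, and leaving out 1 library at most 1 in either direction. In GNA11 Q209L against BRAF V600E Bap1 KO the counts of 1609 and 1028 became 346 and 71 with the 2 genotypes alone, 845 and 347 with the Xist term, 500 and 338 without the libraries marked NA, and 257 and 8 without GNA11 Q209L replicate 2, and DESeq2 called 3091 lower. In GNA11 Q209L Bap1 KO against BRAF V600E Bap1 KO, 2865 and 4281 became 1372 and 2199 without the libraries marked NA. Of 23 list genes named in that comparison 17 kept their calls in every alternative, and of 13 in the other, 0. No paired analysis was possible because replicate numbers are only in accession order. With 2 GNA11 Q209L libraries, exact tests cannot go below 0.0952 against 5 libraries or 0.133 against 4. Members near 1 CPM rest on few counts.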
